A study of Homo sapiens with 21 samples.

Results

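The genes described here are 10 well-known targets of the transcription factor p53: CDKN1A, CCNG1, MDM2, FAS, TP53I3, ZMAT3, DDB2, XPC, GDF15 and FDXR. They were chosen by gene symbol. Of the 10, 9 had at least 1 probe set carrying that symbol alone in the platform annotation, with 16 probe sets between them, among 12165 genes and 19724 probe sets tested. FDXR, a mitochondrial ferredoxin reductase, was not analysed here. RNA of 3 human myeloid leukaemia lines, MOLM-14, U937 and HL-60, was hybridised to Affymetrix U133A arrays in their high-throughput (HT) format, on which several short probes, a probe set, measure 1 transcript. Each line carried 1 of 3 short hairpins: shSYK_1 or shSYK_2, both against the tyrosine kinase SYK, or shLuc against luciferase, a gene that human cells lack. All cells, controls included, were infected, kept in 1 µg/ml puromycin from 48 h after infection and harvested at day 5. In every line there were 2 arrays for shSYK_1, 2 for shSYK_2 and 3 for shLuc, 21 arrays in all, described in the labels as replicate transductions. The p-values therefore take in the variation among transductions and do not extend to further lines.

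p53 is held at a low level by the ubiquitin ligase MDM2 and accumulates after DNA damage, nucleotide shortage or oncogene activity. It binds paired half-sites in DNA and raises transcription of genes for cell-cycle arrest, death receptors, DNA repair and its own inhibitor MDM2. MOLM-14, a monocytic line with an internal tandem duplication in FLT3, is known to keep wild-type p53, while U937, a monocytic line, and HL-60, a promyelocytic line, are known to lack functional p53. This status is background and is not given in the labels. Only 1 line is p53-competent, so p53 status and whatever else sets MOLM-14 apart cannot be told apart.

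The promoter windows of MDM2, FAS and DDB2 are shown because they hold a match to the p53 response element, set in capitals. They are RefSeq sequences of GRCh38.p14, from 250 bases before to 50 bases after a transcription start, all on the plus strand. The MDM2 window lies at chr12:68808767-68809066, the FAS window at chr10:88991181-88991480 and the DDB2 window at chr11:47214724-47215023.
MDM2 promoter: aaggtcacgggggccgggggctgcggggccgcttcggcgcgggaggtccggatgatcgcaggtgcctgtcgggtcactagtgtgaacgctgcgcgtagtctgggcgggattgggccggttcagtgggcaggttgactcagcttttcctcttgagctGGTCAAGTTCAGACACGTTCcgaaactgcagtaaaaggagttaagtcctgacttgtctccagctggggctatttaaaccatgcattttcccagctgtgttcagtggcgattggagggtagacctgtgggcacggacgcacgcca
FAS promoter: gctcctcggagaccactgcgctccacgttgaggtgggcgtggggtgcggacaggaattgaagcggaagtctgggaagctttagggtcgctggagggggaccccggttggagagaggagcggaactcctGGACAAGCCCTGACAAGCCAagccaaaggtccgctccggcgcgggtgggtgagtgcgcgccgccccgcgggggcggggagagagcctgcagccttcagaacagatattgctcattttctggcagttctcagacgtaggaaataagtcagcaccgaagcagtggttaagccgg
DDB2 promoter: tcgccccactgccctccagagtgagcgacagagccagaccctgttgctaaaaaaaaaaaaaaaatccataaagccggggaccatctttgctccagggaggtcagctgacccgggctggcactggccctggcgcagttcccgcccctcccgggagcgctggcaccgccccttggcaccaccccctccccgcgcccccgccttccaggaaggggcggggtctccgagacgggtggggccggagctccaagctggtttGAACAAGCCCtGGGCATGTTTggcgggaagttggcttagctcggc
Capitals mark a pair of p53 half-sites of 10 letters each, with 0 or 1 base between them and at most 2 mismatches over the pair. The half-site consensus reads the same on both strands. The DDB2 pair in capitals has 0 mismatches and 1 base between its half-sites. A second DDB2 pair, with 1 mismatch and 0 bases between, is a poorer match and overlaps it. It shares the first half-site in capitals, and its other half-site, just before, is not in capitals. The MDM2 and FAS pairs have 2 mismatches each and no base between. Of the 19 windows that the table holds for the 10 genes, 4 held such a pair, from 3 genes, the second MDM2 window overlapping the one shown. Over all 35116 windows in the table, 1.34% held one. A match is a run of letters and not a measured binding site.

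The hairpins that define the knockdown are shown because the responses to them differed for several of these genes. Their target sites in SYK are given in the labels.
shSYK_1 target: gcagcagaacagacatgtcaa
shSYK_2 target: gcaggccatcatcagtcagaa
On the brighter of its 2 probe sets, SYK intensity in MOLM-14 was 20.5% of the shLuc level with shSYK_1 and 12.9% with shSYK_2. In U937 it was 31.1% with shSYK_1 and 22.9% with shSYK_2. In HL-60 it was 25.5% with shSYK_1 and 21.7% with shSYK_2. SYK fell with both hairpins in every line, with limma adjusted p of at most 8.26e-10. On the dimmer probe set, over both hairpins, 25.9% of the shLuc level remained for MOLM-14, 27.1% for U937 and 26.5% for HL-60. The SYK response of MOLM-14 minus the mean of the other responses was -0.63 log2 on the brighter set (limma adjusted p = 0.000361). On the dimmer set it was -0.05 log2 (0.835). The 2 probe sets thus differ on whether knockdown was deeper in MOLM-14. The part of knockdown depth in the responses below was not tested.

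The values are authors' RMA intensities, shown here as log2. The lower quartile of an array lay between 2.87 and 3.04 log2 and its median between 4.20 and 4.36, which marks the range in which a probe set is close to the dimmest values. The myeloid marker list had 8 measured genes, of which MOLM-14 held 7 above the array median, U937 held 4 and HL-60 held 8, led by CEBPA in MOLM-14 and U937 and by MPO in HL-60. Megakaryocyte and B cell markers lay below it in all 3 lines. Of 6 measured erythroid markers, MOLM-14 held 1 above it, U937 held 2 and HL-60 held 1, led by EPOR. Of 6 T and NK cell markers, MOLM-14 and U937 held 1 each and HL-60 held 0, with NCAM1 at 8.35 log2 in MOLM-14. Of 6 epithelial and stromal markers, MOLM-14 held 3 and the other lines 1 each, with KRT18 at 7.42 log2 in MOLM-14. The labels of 1 array conflict: HL-60 shSYK_2 replicate 1 is named shSYK_2 in its title and treatment and shSYK_1 in its source. It was kept in shSYK_2, its correlation over all probe sets being 0.9933 with the other shSYK_2 array and 0.9865 to 0.9886 with the shSYK_1 arrays. Its upper quartile was 122.3 on the linear scale, against 134.5 to 139.8 on the other arrays.

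In the control arrays, most p53 targets were higher in MOLM-14 than in the other lines. Relative to the mean of U937 and HL-60, 8 of the 9 measured genes were called higher in MOLM-14 and XPC, a DNA damage recognition factor, was called lower. A gene is called, here and below, where its brightest probe set had a Benjamini-Hochberg adjusted p below 0.05 in limma over all probe sets tested. Among all genes, 23.8% were called higher and 26.7% lower in this comparison, 50.5% either way, so a call by itself is common here. In bulk RNA, the share of cells that express a gene and its level per cell cannot be told apart. The median difference was 1.13 log2 for the 9 genes and -0.04 log2 for all genes. CDKN1A ranked 22 and TP53I3 ranked 99 of 12165 genes by this difference. Against U937, 7 were called higher, XPC lower and CCNG1 not called (25.3% of all genes higher, 26.0% lower), and against HL-60, 8 were called higher and XPC lower (22.7% higher, 26.0% lower). The 7 genes called higher in MOLM-14 than in each of the other lines compare with 13.1% of all genes. On all 7 MOLM-14 arrays, whatever the hairpin, 6 of the 9 genes (CDKN1A, MDM2, FAS, ZMAT3, DDB2 and TP53I3) were above all 14 arrays of the other lines, as were 7.09% of all genes. For MDM2 the margin was narrow, with a lowest MOLM-14 array of 3.36 log2 and a highest HL-60 array of 3.33. The other MDM2 probe sets did not separate the lines in this way. None of the 9 was below on all 7 arrays, as were 5.52% of all genes.

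**Figure D1:**
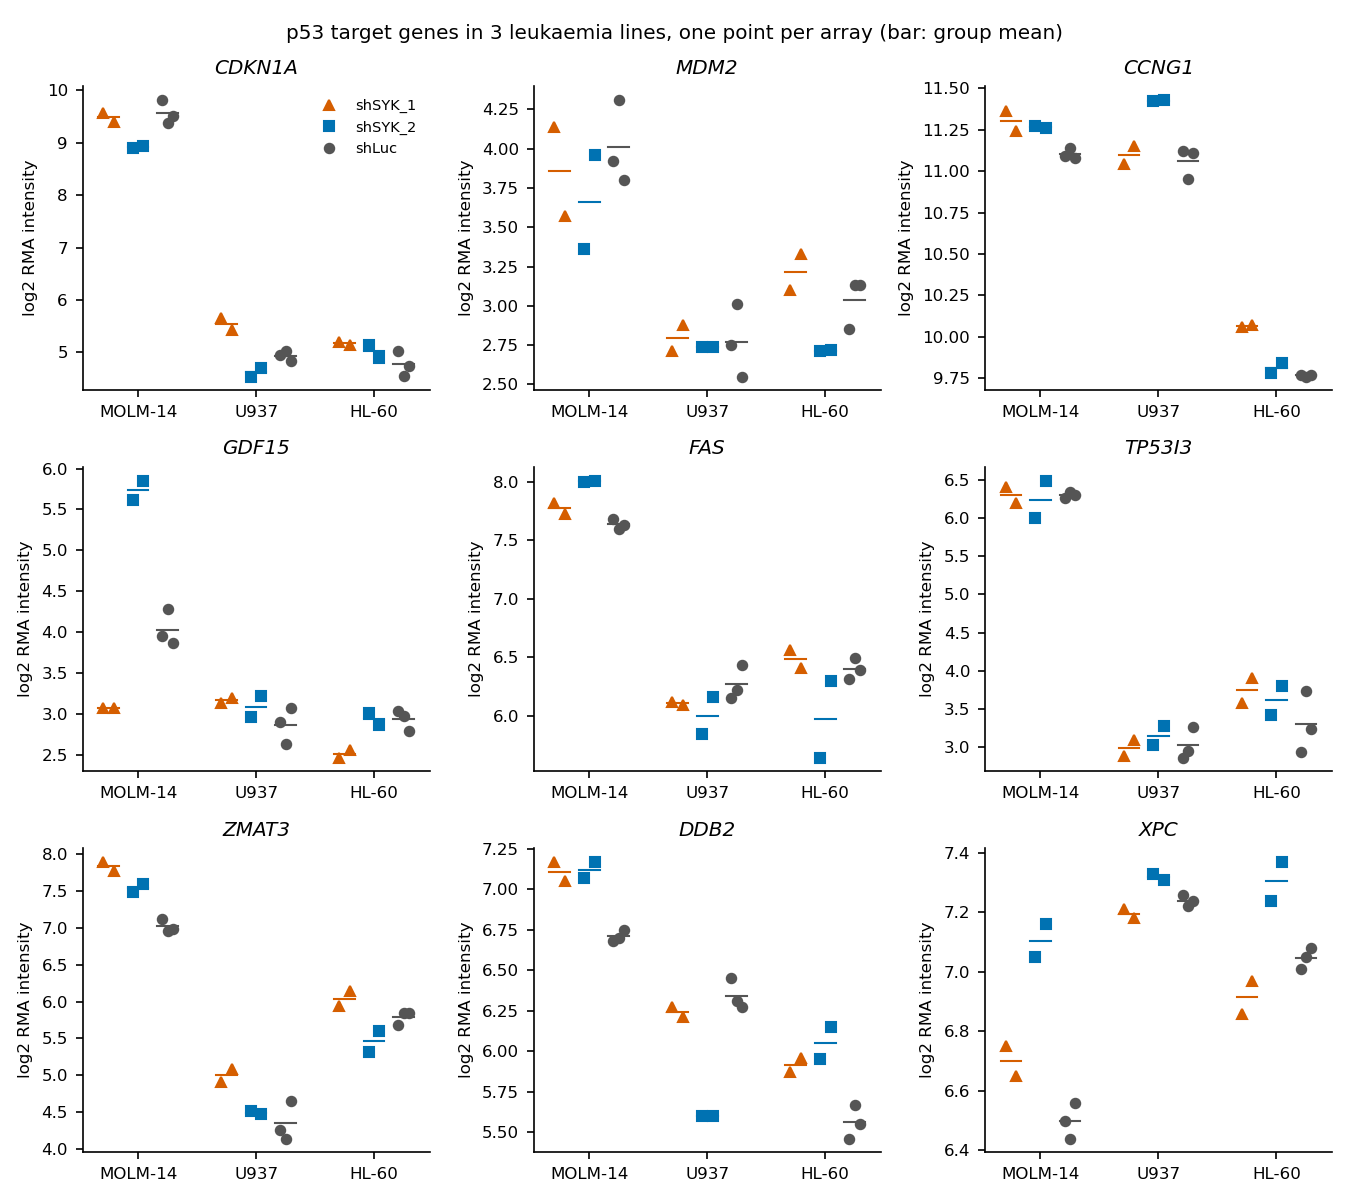
Log2 RMA intensity of the 9 measured p53 targets, one point per array and a bar at each group mean, by line and hairpin (2 arrays per SYK hairpin, 3 shLuc). The MOLM-14 arrays of CDKN1A lie between 8.90 and 9.82, against 4.54 to 5.66 in U937 and 4.55 to 5.20 in HL-60, and XPC is lower in MOLM-14 than in U937 on all arrays.

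CDKN1A encodes p21, the inhibitor of cyclin-dependent kinases through which p53 arrests the cell cycle. With shLuc its log2 intensity was 9.82, 9.37 and 9.52 in MOLM-14, against 4.95, 5.02 and 4.84 in U937 and 5.03, 4.55 and 4.75 in HL-60. The MOLM-14 arrays stood far above both other lines, which overlapped each other. The difference from the mean of U937 and HL-60 was 4.71 ± 0.109 log2 (SE), or 26.2-fold, with a limma adjusted p of 6.31e-16. It was 4.63 log2 against U937 and 4.79 log2 against HL-60. CCNG1 encodes cyclin G1, which recruits a phosphatase to MDM2. With shLuc it had 11.09, 11.14 and 11.08 log2 in MOLM-14, against 11.12, 10.95 and 11.11 in U937 and 9.77, 9.76 and 9.77 in HL-60. The MOLM-14 and U937 arrays overlapped and both stood above HL-60. The difference for CCNG1 was 1.33 ± 0.0609 log2 (SE) against HL-60 (limma adjusted p = 6.16e-12) and 0.04 log2 against U937, with a 95% interval of -0.09 to 0.17 (adjusted p = 0.646). Its difference of 0.69 log2 from the mean of both lines thus came from HL-60.

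MDM2, the ligase that marks p53 for degradation and is itself induced by p53, was dim on every array. On its brightest probe set it had 3.92, 4.31 and 3.80 log2 with shLuc in MOLM-14, against 2.75, 3.01 and 2.55 in U937 and 2.85, 3.13 and 3.13 in HL-60. The MOLM-14 arrays lay above both other lines, which overlapped each other, and the U937 and HL-60 values sit near the lower quartile of the arrays, where RMA compresses differences. The difference from the mean of both lines was 1.11 ± 0.150 log2 (SE), 2.16-fold, with a limma adjusted p of 6.67e-06. The other 3 MDM2 probe sets, all dimmer, gave 0.68 (adjusted p = 6.37e-05), 0.29 (0.0355) and -0.06 log2 (0.726) in the same comparison. The 4 probe sets thus disagree in size, and the dimmest shows no called difference.

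FAS, TP53I3 and ZMAT3 belong to the death and growth-control branch. FAS is a death receptor of the cell surface. With shLuc it had 7.68, 7.60 and 7.63 log2 in MOLM-14, against 6.15, 6.22 and 6.43 in U937 and 6.31, 6.49 and 6.39 in HL-60. The MOLM-14 arrays were higher without overlap, by 1.30 ± 0.110 log2 (SE) or 2.47-fold (limma adjusted p = 1.92e-08). The other 3 FAS probe sets gave 1.25, 1.34 and 1.32 log2, close to the first. TP53I3, an NADPH-dependent quinone reductase linked to oxidative stress, had 6.26, 6.34 and 6.31 log2 with shLuc in MOLM-14, against 2.86, 2.95 and 3.26 in U937 and 2.93, 3.73 and 3.23 in HL-60. It was well read in MOLM-14 and close to the dimmest values in U937, and differed by 3.15 ± 0.156 log2 (SE) or 8.85-fold (limma adjusted p = 1.70e-11). ZMAT3, a zinc-finger RNA-binding protein that regulates splicing and is known as a growth suppressor downstream of p53, had 7.12, 6.96 and 6.99 log2 with shLuc in MOLM-14, against 4.26, 4.14 and 4.65 in U937 and 5.68, 5.85 and 5.84 in HL-60. The 3 lines did not overlap, MOLM-14 being highest, HL-60 next and U937 lowest. MOLM-14 was 1.23 ± 0.113 log2 (SE) above HL-60 (limma adjusted p = 6.97e-08) and 2.67 ± 0.113 log2 above U937 (1.53e-12).

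The repair genes DDB2 and XPC, which find ultraviolet damage for nucleotide excision repair, went in opposite directions. DDB2 had 6.68, 6.70 and 6.75 log2 with shLuc in MOLM-14, against 6.45, 6.31 and 6.27 in U937 and 5.46, 5.67 and 5.55 in HL-60. The lines did not overlap, and MOLM-14 was closer to U937, by 0.37 ± 0.0745 log2 (SE; limma adjusted p = 0.000451), than to HL-60, by 1.15 ± 0.0745 log2 (7.31e-10). XPC had 6.50, 6.44 and 6.56 log2 with shLuc in MOLM-14, against 7.26, 7.22 and 7.24 in U937 and 7.01, 7.05 and 7.08 in HL-60. Every MOLM-14 control array was below every control array of the other lines, and the mean difference was -0.64 log2 (SE 0.0521, limma adjusted p = 1.17e-08). XPC was the only measured member called lower in MOLM-14, and it was lower against U937 (-0.74 log2) and against HL-60 (-0.55 log2).

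GDF15, a secreted stress cytokine of the TGF-beta family that is induced by p53 and also by ATF4, had 3.95, 4.28 and 3.87 log2 with shLuc in MOLM-14, against 2.91, 2.64 and 3.07 in U937 and 3.04, 2.98 and 2.79 in HL-60. MOLM-14 was higher without overlap by 1.13 ± 0.104 log2 (SE; limma adjusted p = 5.87e-08), from values near the dimmest of the array in both other lines. A second GDF15 probe set, at 2.13 to 2.84 log2 on all arrays, gave 0.09 log2 (adjusted p = 0.571). The brighter GDF15 and MDM2 probe sets carry the suffix x_at, which Affymetrix gives to sets whose probes can bind other transcripts.

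**Figure D2:**
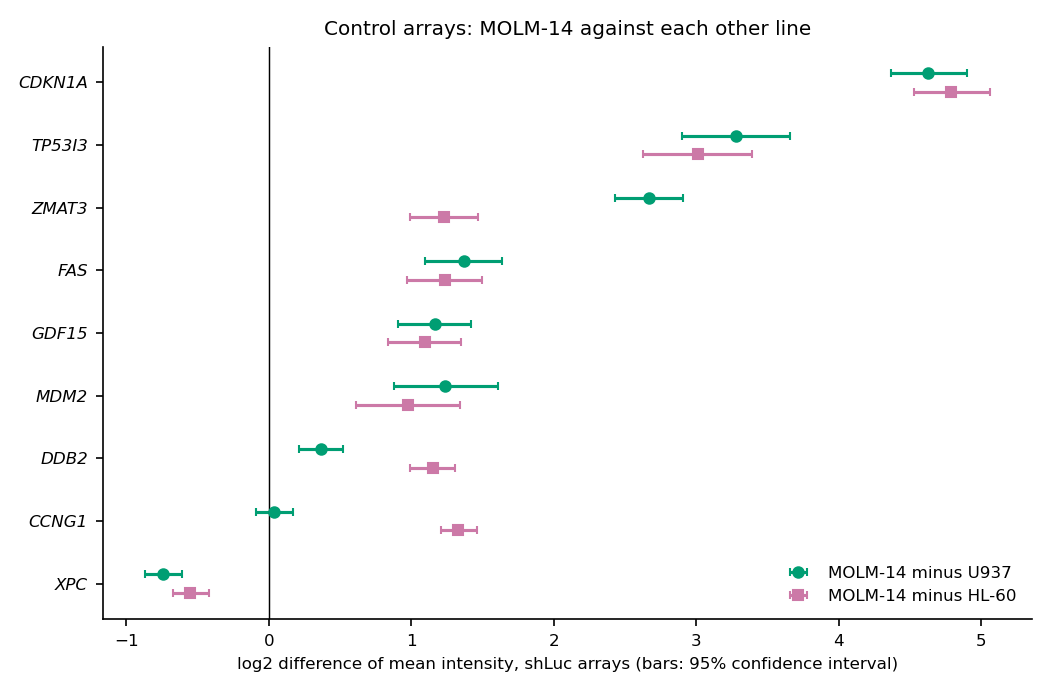
Log2 difference in shLuc arrays between MOLM-14 and U937 (circles) and between MOLM-14 and HL-60 (squares) for the 9 measured p53 targets, with 95% confidence intervals. CDKN1A differs by 4.63 and 4.79, XPC by -0.74 and -0.55, and the interval of CCNG1 against U937 spans 0.

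The line difference was also present under both SYK hairpins. With shSYK_1, 7 of the 9 genes were called higher in MOLM-14 than in the mean of the other lines and XPC lower (21.1% of all genes higher, 22.9% lower). GDF15 was the exception, at 0.23 log2 (adjusted p = 0.181). With shSYK_2, 8 were called higher and XPC lower (23.2% higher, 22.7% lower). CDKN1A differed by 4.12 log2 with shSYK_1 and 4.09 log2 with shSYK_2, and TP53I3 by 2.94 and 2.87 log2. The MDM2 difference with shSYK_1, 0.85 log2, was 0.57 log2 without MOLM-14 shSYK_1 replicate 1 and was then not called (adjusted p = 0.0544). The XPC difference with shSYK_2, -0.21 log2, was -0.15 log2 without MOLM-14 shSYK_2 replicate 1 (adjusted p = 0.190).

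The 2 p53-deficient lines differed from each other in 4 of the 9 genes. With shLuc, CCNG1 (1.29 log2), DDB2 (0.78 log2) and XPC (0.19 log2) were called higher in U937 than in HL-60, and ZMAT3 (-1.44 log2) was called lower. Of all genes, 25.5% were called higher and 26.7% lower in this comparison, and the median of the 9 genes was -0.07 log2 against -0.05 log2 for all genes. The values of CDKN1A (0.16 log2, adjusted p = 0.327), MDM2 (-0.27), FAS (-0.13), GDF15 (-0.07) and TP53I3 (-0.28) were not called. Centring each array on its median moved every difference between U937 and HL-60 by -0.15 log2 and every one between MOLM-14 and HL-60 by -0.14 log2. Under it XPC was 0.04 log2 higher in U937 (adjusted p = 0.530) and MDM2 was 0.42 log2 lower there (-0.42, adjusted p = 0.0490). The TP53I3 difference was called, at -0.46 log2 (0.0463), without HL-60 shLuc replicate 1. The XPC call was also lost with the array of conflicting labels placed in shSYK_1 (0.19 log2, 0.0635).

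With SYK knockdown, the differences from shLuc over both hairpins lay between -0.42 and 0.67 log2 for the 9 genes in all 3 lines. In MOLM-14 the mean of both hairpins against shLuc gave 5 genes called higher (ZMAT3, DDB2, XPC, GDF15 and CCNG1), CDKN1A called lower and 3 not called, where 9.26% of all genes were called higher and 9.06% lower. The median of the 9 was 0.26 log2, against 0.02 log2 for all genes. In U937, ZMAT3 and CCNG1 were called higher and DDB2 lower (6.69% and 7.05% of all genes), with a median of 0.04 log2. In HL-60, DDB2 and CCNG1 were called higher and none lower (10.8% and 12.5%), with a median of 0.06 log2. The count of 6 calls in MOLM-14 was 3 without MOLM-14 shLuc replicate 1, without shLuc replicate 3 or without shSYK_2 replicate 2. The 3 calls in U937 were 1 without U937 shLuc replicate 2, shSYK_1 replicate 2 or shSYK_2 replicate 1. Each line has its own controls, and differences between lines were tested directly.

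The hairpins were also counted one by one. In MOLM-14, shSYK_1 gave 4 members called higher (CCNG1, DDB2, XPC and ZMAT3) and GDF15 lower, against 12.3% and 11.7% of all genes. shSYK_2 gave DDB2, GDF15, XPC and ZMAT3 higher and CDKN1A lower there, against 7.88% and 7.78%. DDB2, XPC and ZMAT3 were thus called higher with each hairpin, but the shSYK_1 calls were weak for XPC (0.20 log2, adjusted p = 0.0429) and CCNG1 (0.20 log2, 0.0437), ended by 17 and 18 of 31 alternatives. In U937, shSYK_1 gave CDKN1A and ZMAT3 higher and none lower (7.96% and 7.71%), and shSYK_2 gave CCNG1 higher and DDB2 lower (7.57% and 7.42%), with no member called for both hairpins. In HL-60, shSYK_1 gave CCNG1 and DDB2 higher and GDF15 lower (11.9% and 11.1%), and shSYK_2 gave DDB2 and XPC higher and FAS lower (9.49% and 10.9%). The direct comparison of shSYK_2 with shSYK_1 called GDF15 and XPC higher and CDKN1A lower in MOLM-14 (12.6% and 12.4%). It called CCNG1 higher and CDKN1A, DDB2 and ZMAT3 lower in U937 (11.2% and 10.5%), and XPC higher (0.39 log2) and CCNG1 (-0.26), FAS (-0.51) and ZMAT3 (-0.57) lower in HL-60 (8.89% and 12.0%). All 4 of these HL-60 differences lost their call with the array of conflicting labels placed in shSYK_1, where XPC had 0.34 log2 (adjusted p = 0.278), CCNG1 -0.13 (0.727), FAS 0.10 (0.931) and ZMAT3 -0.20 (0.816). Without that array, XPC was still called (0.45 log2, 0.00276), and CCNG1 (-0.23, 0.129), FAS (-0.18, 0.463) and ZMAT3 (-0.44, 0.109) were not. Of the HL-60 calls against shLuc, only those of DDB2 held with the array placed in shSYK_1: CCNG1 (0.20 log2, 0.10) and GDF15 (-0.25, 0.284) with shSYK_1, and XPC (0.32, 0.172) and FAS (-0.10, 0.907) with shSYK_2, were then not called.

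CDKN1A fell in MOLM-14 by 0.37 log2 (-0.37 ± 0.118, SE; limma adjusted p = 0.0390). Its MOLM-14 arrays had 9.57 and 9.40 log2 with shSYK_1 and 8.90 and 8.93 with shSYK_2, against 9.82, 9.37 and 9.52 with shLuc. Both shSYK_2 arrays lay below all controls and the shSYK_1 arrays lay among them. The difference was -0.65 log2 with shSYK_2 (adjusted p = 0.00408) and -0.09 log2 with shSYK_1 (0.755, 95% interval -0.38 to 0.21). Beside this, CDKN1A in U937 had 5.66 and 5.42 log2 with shSYK_1 and 4.54 and 4.71 with shSYK_2, against 4.95, 5.02 and 4.84 with shLuc. There it rose by 0.60 log2 with shSYK_1 (adjusted p = 0.00722), a value of 0.48 log2 without U937 shSYK_1 replicate 1 (0.118), and shSYK_2 gave -0.31 log2 (0.175). In HL-60 it differed by 0.32 log2 over both hairpins (adjusted p = 0.0619). Against the mean response of the other lines, the MOLM-14 response was lower, with a difference of -0.60 ± 0.144 log2 (SE; limma adjusted p = 0.0245), in a comparison that called 4.92% of all genes. The MOLM-14 call of CDKN1A was lost without MOLM-14 shLuc replicate 1 (-0.25 log2, adjusted p = 0.226), shLuc replicate 3 (-0.40, 0.0698), shSYK_1 replicate 2 (-0.33, 0.121), shSYK_2 replicate 1 (-0.36, 0.0906) or shSYK_2 replicate 2 (-0.38, 0.0797). The line difference was lost without MOLM-14 shLuc replicate 1 (-0.48, 0.0917), shSYK_1 replicate 2 (-0.56, 0.0677), shSYK_2 replicate 1 (-0.60, 0.0609) or shSYK_2 replicate 2 (-0.61, 0.0525).

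Averaged over both hairpins, CCNG1 rose slightly in all 3 lines, with 0.18 log2 for MOLM-14 (adjusted p = 0.0351), 0.20 log2 for U937 (0.0290) and 0.17 log2 for HL-60 (0.0452). In MOLM-14 the hairpins gave close values, 0.20 log2 with shSYK_1 and 0.16 log2 with shSYK_2 (0.130). In U937 the rise was that of shSYK_2, 0.36 log2 (0.00132), while shSYK_1 gave 0.03 log2 (0.831), and the hairpins differed by 0.33 log2 (0.00398), a call lost without U937 shSYK_1 replicate 1 (0.27, 0.0549). In HL-60 it was that of shSYK_1, 0.30 log2 (0.00406), while shSYK_2 gave 0.04 log2 (0.742). The HL-60 hairpin difference of -0.26 log2 (0.0224) was also lost without shSYK_1 replicate 1 (0.0951) or shSYK_1 replicate 2 (0.0829). The difference between the MOLM-14 response and the others was 0.00 log2, with a 95% interval of -0.15 to 0.15. The averaged calls were weak: of 31 alternatives, 10 ended the MOLM-14 call, 8 the U937 call and 21 the HL-60 call, with values of 0.15 to 0.21, 0.14 to 0.23 and 0.13 to 0.20 log2.

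MDM2 and TP53I3 were not called on their brightest probe sets for either hairpin in any line. Over both hairpins, MDM2 had -0.25 log2 in MOLM-14 (95% interval -0.60 to 0.09), and TP53I3 had -0.03 log2 (-0.39 to 0.33). The other MDM2 probe sets ran the other way there, at 0.25, 0.27 and 0.04 log2, none of them called. The first of these rose with shSYK_1 by 0.53 log2 (limma adjusted p = 0.0136) and had -0.04 log2 with shSYK_2 (0.914), a hairpin difference of -0.57 log2 (0.0144), so the probe sets do not give MDM2 a single direction in MOLM-14. TP53I3 in HL-60 gained a call without HL-60 shLuc replicate 2, at 0.60 log2 over both hairpins (0.0155) and 0.66 log2 with shSYK_1 (0.0178).

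FAS had 7.82 and 7.73 log2 with shSYK_1 and 8.0 and 8.01 with shSYK_2 in MOLM-14, against 7.68, 7.60 and 7.63 with shLuc. All 4 knockdown arrays lay above the controls, but on this brightest probe set the difference was not called, with 0.26 log2 over both hairpins (limma adjusted p = 0.167), 0.14 log2 with shSYK_1 (0.577) and 0.37 log2 with shSYK_2 (0.0954). The shSYK_2 value was called under 7 of 31 alternatives, among them without either HL-60 shSYK_2 array (0.0147 each). The FAS probe set next in brightness gave 0.39 log2 with shSYK_2 (0.0114) and 0.00 log2 with shSYK_1 (0.999). Over both hairpins FAS had -0.21 log2 in U937 (0.309) and -0.17 in HL-60 (0.353). Relative to the averaged response of the other lines, that of MOLM-14 differed by 0.45 ± 0.145 log2 (SE; limma adjusted p = 0.10) on the brightest probe set and 0.39 ± 0.0994 log2 (0.0375) on the next. The first was called without HL-60 shSYK_2 replicate 1 (0.37 log2, 0.0490) or replicate 2 (0.53 log2, 0.00580). In HL-60, FAS had 5.64 and 6.30 log2 with shSYK_2, against 6.31, 6.49 and 6.39 with shLuc. The fall with shSYK_2 there, -0.43 log2 (adjusted p = 0.0444), rested on the array with conflicting labels: without HL-60 shSYK_2 replicate 1 it was -0.10 log2 (0.717).

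ZMAT3 rose in MOLM-14 with each hairpin. It had 7.90 and 7.78 log2 with shSYK_1 and 7.49 and 7.60 with shSYK_2, against 7.12, 6.96 and 6.99 with shLuc, so that all 4 knockdown arrays lay above all controls. The rise was 0.67 ± 0.106 log2 (SE), 1.59-fold (limma adjusted p = 0.000293), with 0.82 log2 for shSYK_1 and 0.52 log2 for shSYK_2. The shSYK_2 value was 0.47 log2 without MOLM-14 shSYK_2 replicate 2 and was then not called (adjusted p = 0.104). In U937 it rose by 0.40 log2 (adjusted p = 0.0200), with 0.65 log2 for shSYK_1 (0.00173) and 0.14 log2 for shSYK_2 (0.591). That U937 call was lost without U937 shLuc replicate 1 (0.35 log2, adjusted p = 0.0957), shLuc replicate 2 (0.29, 0.131), shSYK_1 replicate 2 (0.35, 0.0762) or shSYK_2 replicate 1 (0.39, 0.0564). In HL-60 it had -0.04 log2 (0.841), a mean over 0.25 log2 with shSYK_1 (0.204) and -0.33 log2 with shSYK_2 (0.0813). The MOLM-14 response exceeded the mean of the others by 0.49 ± 0.130 log2 (SE; adjusted p = 0.0413), a call that 14 of 30 alternatives ended, with values of 0.42 to 0.55 log2.

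DDB2 responded in a different direction in U937. In MOLM-14 it had 7.17 and 7.05 log2 with shSYK_1 and 7.07 and 7.17 with shSYK_2, against 6.68, 6.70 and 6.75 with shLuc. In HL-60 it had 5.87 and 5.96 with shSYK_1 and 5.95 and 6.15 with shSYK_2, against 5.46, 5.67 and 5.55 with shLuc. In both lines all knockdown arrays lay above all controls. In U937 it had 6.27 and 6.21 with shSYK_1 and 5.60 and 5.60 with shSYK_2, against 6.45, 6.31 and 6.27 with shLuc, the low values being those of shSYK_2. The response was 0.41 ± 0.0697 log2 in MOLM-14 (SE; limma adjusted p = 0.000589), -0.42 ± 0.0697 log2 in U937 (0.000555) and 0.42 ± 0.0697 log2 in HL-60 (0.000288). Among single hairpins, the MOLM-14 shSYK_2 call was lost without its replicate 2 (0.36 log2, 0.0520) and the HL-60 shSYK_1 call without its replicate 2 (0.31 log2, 0.0647). The U937 response minus the HL-60 response was -0.85 ± 0.0986 log2 (adjusted p = 6.23e-05), in a comparison that called 5.92% of all genes, and U937 shSYK_1 alone gave -0.10 log2 (0.509). The MOLM-14 response exceeded the mean of the others by 0.41 log2 (0.0109), which is the distance to a mean over opposite responses and not a difference from HL-60.

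XPC, which started lower in MOLM-14, rose there with the hairpins. It had 6.75 and 6.65 log2 with shSYK_1 and 7.05 and 7.16 with shSYK_2, against 6.50, 6.44 and 6.56 with shLuc. All 4 knockdown arrays lay above all controls, and the shSYK_2 arrays reached the range of HL-60. The rise was 0.40 ± 0.0563 log2 (SE; limma adjusted p = 0.000102), and shSYK_2 exceeded shSYK_1 by 0.40 log2 (0.000605). In U937 it had 0.01 log2 (adjusted p = 0.930). In HL-60 the mean of 0.06 log2 (0.487) was taken over opposite values, -0.13 log2 with shSYK_1 (0.206) and 0.26 log2 with shSYK_2 (0.0131), whose difference of 0.39 log2 (0.00137) was close to that in MOLM-14. The HL-60 shSYK_2 call was lost without HL-60 shSYK_2 replicate 2 (0.20 log2, 0.0828). The hairpin difference in MOLM-14 minus the mean of the other lines was 0.15 log2 (0.379). The MOLM-14 response exceeded the mean of the others by 0.36 ± 0.0690 log2 (adjusted p = 0.00559), or by 0.32 log2 with the array of conflicting labels placed in shSYK_1 (0.111).

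On its brighter probe set, GDF15 moved in opposite directions with the 2 hairpins in MOLM-14. It had 3.08 and 3.07 log2 with shSYK_1 and 5.62 and 5.85 with shSYK_2, against 3.95, 4.28 and 3.87 with shLuc. The 3 groups did not overlap, the shSYK_1 arrays being near the lower quartile of the array. The difference was -0.96 ± 0.135 log2 with shSYK_1 (SE; limma adjusted p = 5.42e-05) and 1.70 ± 0.135 log2, or 3.25-fold, with shSYK_2 (3.39e-07). shSYK_2 exceeded shSYK_1 by 2.66 log2 in MOLM-14 (1.91e-09), -0.08 log2 in U937 (0.796) and 0.43 log2 in HL-60 (0.0531). This hairpin difference in MOLM-14 minus the mean of the other lines was 2.49 ± 0.181 log2 (adjusted p = 3.47e-07), a contrast added after the values had been seen, in which 10.5% of all genes were called. The mean over both hairpins, 0.37 log2 (0.0320), therefore describes neither hairpin, and 9 of 30 alternatives ended its call. The dimmer GDF15 probe set, near the dimmest values on all arrays, showed no such change in MOLM-14. It had -0.08 log2 with shSYK_1 (limma adjusted p = 0.791) and -0.02 log2 with shSYK_2 (0.963).

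A list of 15 genes of the ATF4 stress response and of the unfolded protein response was counted beside GDF15. With shSYK_1 in MOLM-14, 1 of the 15 rose and 12 fell, with a median of -0.79 log2, in the comparison that called 12.3% of all genes higher and 11.7% lower. With shSYK_2, 4 rose and 1 fell, with a median of 0.26 log2 (7.88% and 7.78% of all genes). CHAC1, which degrades glutathione, fell by 1.77 log2 with shSYK_1 (-1.77, limma adjusted p = 1.08e-06) and had -0.24 log2 with shSYK_2 (0.436). ASNS, asparagine synthetase, fell by 1.02 log2 with shSYK_1 (-1.02, 5.40e-05) and had 0.26 log2 with shSYK_2 (0.281). XBP1, a factor of the unfolded protein response, fell by 1.29 log2 with shSYK_1 (-1.29, 3.56e-09) and rose by 0.45 log2 with shSYK_2 (0.000438). Compared directly, shSYK_2 minus shSYK_1 called 12 of the 15 higher and 1 lower in MOLM-14, with a median of 1.06 log2. In U937 it called 5 higher and 0 lower (0.29 log2, 11.2% and 10.5% of all genes). In HL-60 it called 0 higher and 6 lower (-0.38 log2, 8.89% and 12.0%), with the array of conflicting labels kept in shSYK_2. GDF15 itself was not called between hairpins in U937 or HL-60. The part of these genes in the GDF15 difference was not tested.

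**Figure D3:**
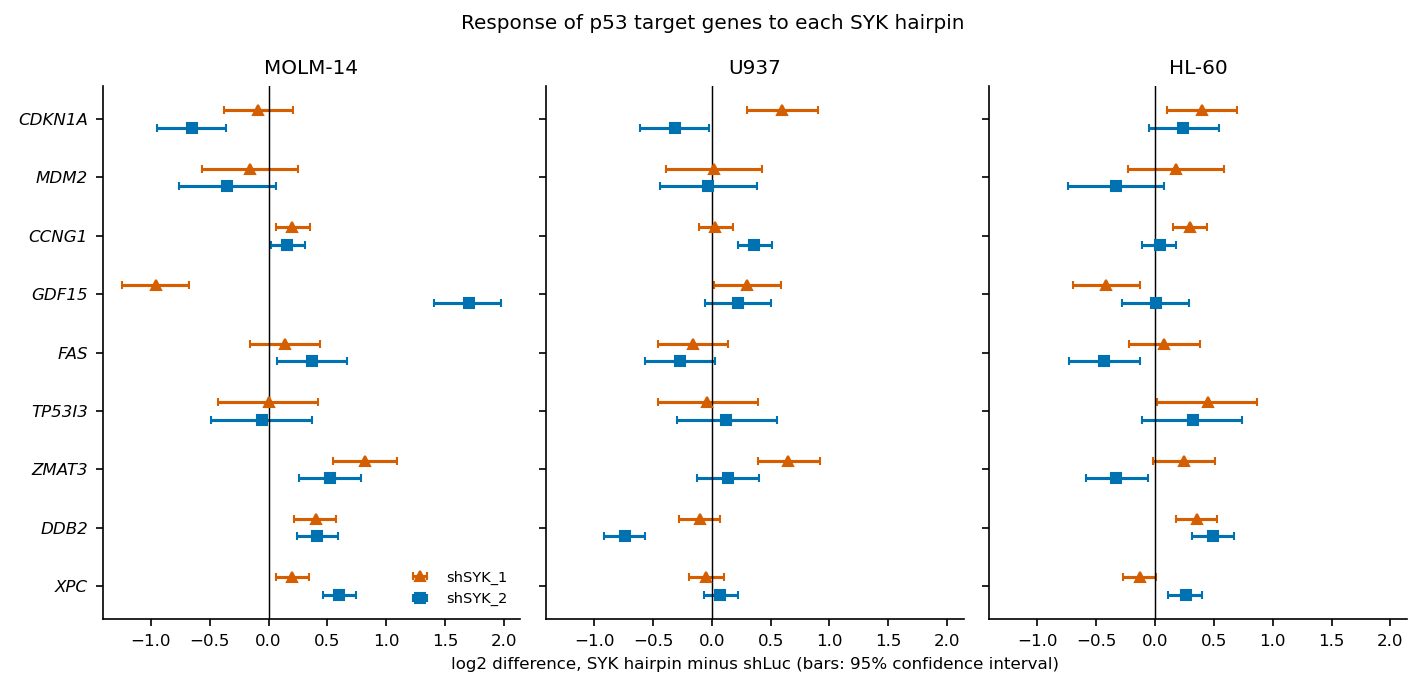
Log2 difference of shSYK_1 (triangles) and shSYK_2 (squares) from shLuc for the 9 measured p53 targets in each line, with 95% confidence intervals. GDF15 in MOLM-14 lies at -0.96 with shSYK_1 and 1.70 with shSYK_2, and DDB2 in U937 at -0.10 and -0.74.

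Other p53 targets were taken from a list of 35 genes, of which 29 were measured. In control arrays, 16 were called higher in MOLM-14 than in the mean of the other lines, 4 lower and 9 not called, with a median of 0.35 log2 against -0.04 log2 for all genes, of which 23.8% were called higher and 26.7% lower. The 4 with the smallest p were TRIM22, an antiviral ubiquitin ligase (2.70 log2, limma adjusted p = 1.07e-14), SESN1, a stress-induced inhibitor of mTORC1 (2.39, 1.76e-13), ASCC3, a helicase (1.32, 8.18e-10), and TIGAR, which lowers glycolytic flux (1.20, 1.51e-09). Each was higher against U937 and against HL-60. SESN1 had 8.03, 7.81 and 7.93 log2 with shLuc in MOLM-14, against 5.47, 5.28 and 5.47 in U937 and 5.71, 5.54 and 5.71 in HL-60, without overlap. It also differed between hairpins in MOLM-14, at -0.41 log2 with shSYK_1 (0.0121) and 0.64 log2 with shSYK_2 (0.000655). Of the genes for death proteins, BAX was called higher in MOLM-14 (0.66 log2, 1.60e-07) and PMAIP1 had -0.01 log2 (0.915).

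**Figure D4:**
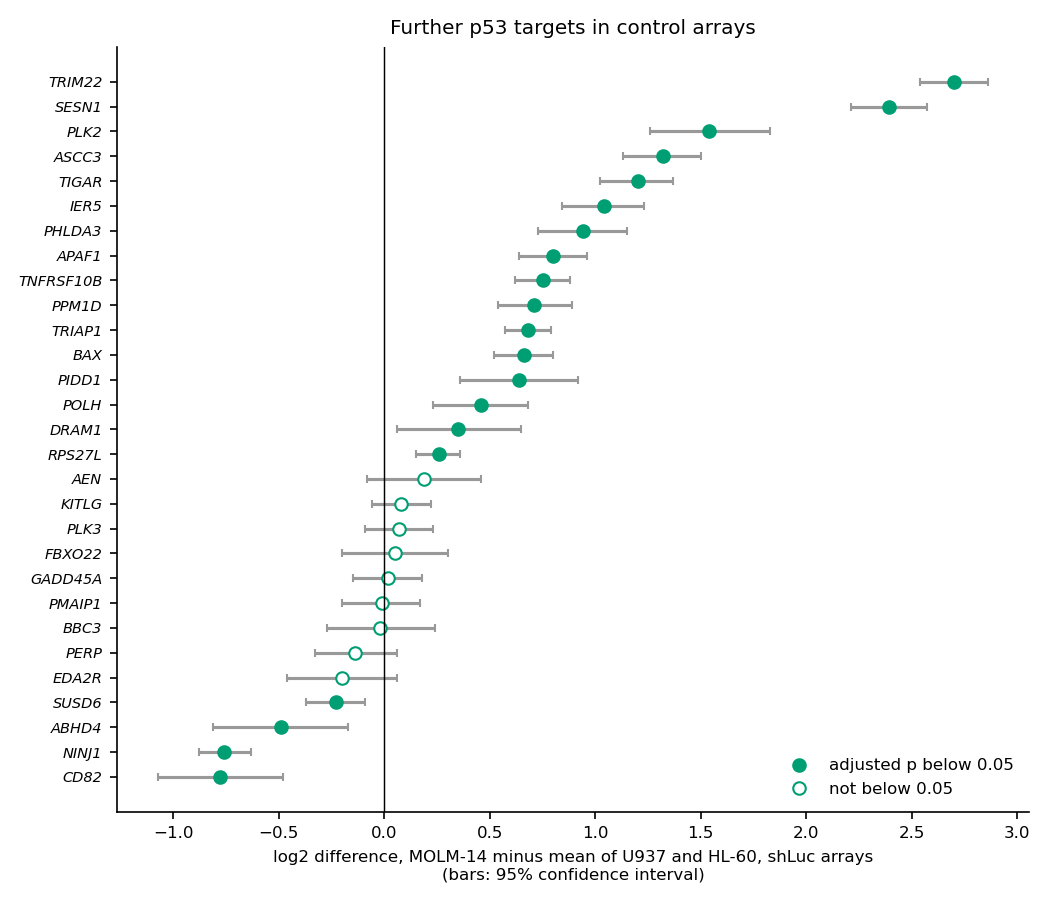
Log2 difference in shLuc arrays, MOLM-14 minus the mean of U937 and HL-60, for the 29 further p53 targets measured, with 95% confidence intervals, filled where the adjusted p is below 0.05. TRIM22 (2.70) and SESN1 (2.39) stand at the top, and 4 genes are called lower.

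With SYK knockdown in MOLM-14, 9 of the 29 rose and 1 fell, with a median of 0.11 log2 against 0.02 log2 for all genes, of which 9.26% rose and 9.06% fell. DRAM1, an inducer of autophagy, rose by 0.97 log2 (limma adjusted p = 0.000263), BAX by 0.44 log2 (0.000351) and RPS27L, a ribosomal protein paralogue, by 0.42 log2 (4.62e-05). DRAM1 in U937 had 7.95 and 7.85 log2 with shSYK_1 and 8.20 and 8.26 with shSYK_2, against 7.60, 7.59 and 7.45 with shLuc. All U937 knockdown arrays of DRAM1 and BAX lay above all controls, and those of RPS27L did not. In HL-60, DRAM1 and BAX lay above all controls on every knockdown array except shSYK_2 replicate 1, the array of conflicting labels. There DRAM1 had 5.12 log2 and BAX 7.25 log2. RPS27L in HL-60 lay below all controls on both shSYK_2 arrays and above them on both shSYK_1 arrays. PMAIP1, which encodes the death protein NOXA, fell by 1.02 log2 (-1.02, 2.13e-06). It had 8.20 and 7.83 log2 with shSYK_1 and 8.74 and 8.64 with shSYK_2, against 9.60, 9.30 and 9.21 with shLuc. All 4 knockdown arrays were below the controls. PMAIP1 also fell in U937 (-0.44 log2, 0.00505) and HL-60 (-0.45 log2, 0.00210), by less than in MOLM-14 (difference -0.57 log2, 0.00879). In U937, 5 of the 29 rose and 1 fell (6.69% and 7.05% of all genes), and in HL-60, 7 rose and 3 fell (10.8% and 12.5%). Tested directly against the mean of the other responses, the MOLM-14 response was called higher for 3 of the 29 and lower for 2. The median of that difference was 0.03 log2, against 0.02 log2 for all genes, of which 4.92% were called either way.

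Regulators of p53 were split between directions. Of 20 listed, 17 were measured, and in control arrays 7 were called higher and 6 lower in MOLM-14 than in the mean of the other lines (23.8% and 26.7% of all genes), with a median of 0.08 log2. p53's own transcript was not analysed here. The largest difference was in CDKN2A, the gene of p16 and of ARF, which inhibits MDM2. It had 2.26, 2.71 and 2.64 log2 with shLuc in MOLM-14, near the dimmest values, against 8.39, 8.24 and 8.28 in U937 and 5.65, 5.59 and 5.61 in HL-60. The difference was -4.42 log2 (limma adjusted p = 9.84e-16), with -5.77 against U937 and -3.08 against HL-60. HIPK2, a kinase of p53, was lower in MOLM-14 by 1.18 log2 (-1.18, 1.75e-08), TRIM24, a ubiquitin ligase of p53, by 0.61 log2 (-0.61, 9.66e-06) and RCHY1, another such ligase, by 0.53 log2 (-0.53, 5.19e-07). With knockdown, 3 of the 17 rose and 2 fell in MOLM-14 (9.26% and 9.06% of all genes). In U937, 1 rose and 4 fell (6.69% and 7.05%), and in HL-60, 2 rose and 4 fell (10.8% and 12.5%). Tested directly against the mean of the other responses, the MOLM-14 response was called for 0 of the 17 (4.92% of all genes). In MOLM-14, ATM (0.46 log2, 0.000447) and HIPK2 (0.55, 0.00161) rose and the checkpoint kinases CHEK1 (-0.64, 5.46e-05) and CHEK2 (-0.38, 0.0103) fell. ATM and CHEK1 were called with each hairpin. CHEK2 fell with shSYK_1 (-0.66 log2, 0.000431) and had -0.11 log2 with shSYK_2 (0.634), and HIPK2 rose with shSYK_1 (0.86 log2, 9.39e-05) and had 0.24 log2 with shSYK_2 (0.266).

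Cell-cycle genes that p21 is known to lower through the DREAM repressor complex were all measured, 20 of 20. In control arrays 8 were called higher and 6 lower in MOLM-14 than in the mean of the other lines (23.8% and 26.7% of all genes), with a median of 0.03 log2, beside a CDKN1A difference of 4.71 log2. With knockdown, none rose and 17 fell in MOLM-14 (median -0.40 log2), where 9.06% of all genes fell. In U937 none rose and 15 fell (-0.34 log2, 7.05% of all genes), and in HL-60 none rose and 1 fell (-0.05 log2, 12.5%). Tested directly against the mean of the other responses, the MOLM-14 response was called lower for 1 of the 20 and higher for 0. The median of that difference was -0.18 log2, and 4.92% of all genes were called either way. The U937 response minus the HL-60 response was called lower for 6 and higher for 0 (median -0.29 log2, 5.92% of all genes). The U937 falls were those of shSYK_2, with 19 lower (7.42% of all genes), while shSYK_1 had 2 higher (7.96%) and none lower. In MOLM-14, MCM5 (-0.57 log2, limma adjusted p = 1.50e-05), CENPA (-0.60, 2.87e-05), FOXM1 (-0.44, 2.91e-05) and CDK1 (-0.50, 2.92e-05) had the smallest p. In the same comparison CDKN1A was at -0.37 log2.

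The genes whose levels over the 9 group means were most like CDKN1A, among the 4615 genes spanning at least 1 log2, were DHRS9 (Pearson r = 0.9981), ADGRE2 (0.9964), ATP10A (0.9938), AGAP1 (0.9927) and SLC35D2 (0.9922). For MDM2 they were ZFR (0.9769), TRHDE (0.9740), XAF1 (0.9732), IER5 (0.9732) and TPD52 (0.9720). All 10 were higher in MOLM-14 than in the mean of the other lines in control arrays, from 1.04 log2 for IER5 to 4.45 log2 for DHRS9. The 9 points come from 3 lines, so such an r mostly restates the contrast of MOLM-14 with the others.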

How the data were processed

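The deposited table held RMA intensity values for every probe set on each array, which the authors computed, per the submitters' processing notes; the version is not given in the sources used here. RMA corrects background, equalises array distributions and summarises probes, and it compresses differences of dim probe sets. The values ran from 3.23 to 13025, a linear scale, and log2 was taken here with a pseudocount of 0. Of 22277 probe sets, 62 controls, 568 with several symbols and 1923 with none in the annotation used were left out. Symbols were taken from the RefSeq table of GRCh38.p14 for the 19707 tested probe sets whose gene ID it held. Each gene was read on its brightest probe set by mean over all arrays.

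One model with 9 group means was fitted to the 21 arrays (lmFit, contrasts.fit and eBayes of limma 3.58.1, under R 4.3.3), with 12 residual degrees of freedom. Tests were two-sided with Benjamini-Hochberg adjustment over 19724 probe sets. Intervals cover 95%. The number of arrays limits the precision. The fit was tested on simulated data. The members and gene lists were chosen with earlier results of these data known. Named genes were the members, SYK, up to 4 per list by smallest p for the line difference and for the MOLM-14 response, and the 5 most like CDKN1A and MDM2; others named were chosen after their values were seen. The alternatives were other choices of probe set, normalization, prior, filter, weights, replicate block, samples and array placement, and each array left out.

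Replicate numbers are shared between groups in the labels. The deviations of same-numbered arrays correlated at -0.20 to 0.09 over 18 pairs, so the numbers were not taken to pair the arrays. In a group of 2 arrays the deviations mirror each other, so these 18 values are not all separate checks. Promoter windows were searched with Python 3.11.15.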

Additional observations from a re-analysis of the deposited data

Results flagged for a closer look

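The response to SYK knockdown differed between lines by a test of the difference in limma. Relative to the averaged response of U937 and HL-60, that of MOLM-14 differed by -0.60 log2 for CDKN1A (adjusted p = 0.0245), 0.41 log2 for DDB2 (0.0109), 0.36 log2 for XPC (0.00559) and 0.49 log2 for ZMAT3 (0.0413). As given above, the CDKN1A call was lost without single MOLM-14 arrays and the ZMAT3 call under many alternatives. The XPC call was lost with the array of conflicting labels placed in shSYK_1. The DDB2 value is a distance to a mean over opposite responses. The U937 response minus the HL-60 response was -0.85 log2 for DDB2 (6.23e-05). For GDF15, the difference between shSYK_2 and shSYK_1 was 2.49 log2 larger in MOLM-14 than in the mean of the other lines (3.47e-07). That was on its brighter probe set, and the dimmer one gave 0.04 log2 (0.957). On the second FAS probe set, the MOLM-14 response minus the mean response of the other lines was 0.39 log2 (0.0375), and for PMAIP1 it was -0.57 log2 (0.00879). Groups of 2 or 3 arrays are too small for a test of single arrays.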

How the results depend on the processing

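Over 31 alternatives, 189 results of the members gave 5808 values. Of these, 5569 kept their side of the threshold, 188 lost the call, 50 gained one and 1 reversed. A change of sign was counted as a reversal only where the value was called before or after. Some uncalled values that changed sign are therefore among the 5569. The line calls in control arrays held best. Leaving out each array in turn gave 9 to 9 members called for MOLM-14 against the mean of both lines, 8 to 8 against U937, 9 to 9 against HL-60 and 4 to 5 for U937 against HL-60. Other settings gave 7 to 9, 6 to 8, 7 to 9 and 3 to 4, the lowest of the first 3 where the dimmest 40% of probe sets were left out, among them those of MDM2 and GDF15. The response counts moved more. Without each array in turn they ran from 3 to 7 in MOLM-14 (6 reported), 1 to 3 in U937 (3), 1 to 3 in HL-60 (2) and 2 to 5 for the MOLM-14 response against the others (4). The HL-60 count was 1 without MOLM-14 shLuc replicate 2 or 3, either MOLM-14 shSYK_2 array, U937 shLuc replicate 1 or 3, either U937 shSYK_2 array, HL-60 shLuc replicate 3, either HL-60 shSYK_1 array or HL-60 shSYK_2 replicate 1. The response difference gave 2 without MOLM-14 shLuc replicate 1, shSYK_1 replicate 2 or either shSYK_2 array. Where HL-60 shSYK_2 replicate 1 was moved into the shSYK_1 group, the counts were 1 in U937, 1 in HL-60 and 1 for the response difference. With only the groups of the contrast they were 1 in U937 and 1 in HL-60. In HL-60 the count was also 1 with median centring, with array weights and with the replicate block, where CCNG1 was the gene lost. The replicate block changed no other count by over 1.5 times. FAS reversed with that array placed in shSYK_1: shSYK_2 minus shSYK_1 in HL-60 was -0.51 log2 as reported and 0.10 log2 (adjusted p = 0.931) then. Over the whole table, that placement gave 1022 genes called for U937 (1672 reported), 1578 for HL-60 (2837) and 258 for the response difference (598). Only the groups of the contrast gave 1626 for HL-60, a trended and robust prior gave 918 for the response difference, and it was 384 without MOLM-14 shLuc replicate 1 and 388 without MOLM-14 shSYK_2 replicate 1. The causes were not tested.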
